A study of Mus musculus with 8 samples.

Results

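Untreated salivary gland tumours of the mouse were set against normal submandibular gland, over all genes of a whole-genome expression array and with most room for the genes of the ducts and of the contractile cells around them. The comparison used 3 of the 8 arrays of the series, chosen by their titles: 2 arrays of tumours that received no drug and the 1 array of submandibular gland, also from untreated tissue. The series title says that AKT, a kinase that carries growth factor signals, induced the tumours. Its other arrays held parotid gland (2 arrays, set beside for comparison) and rapamycin-treated tumours, which entered no contrast here. The parotid arrays and the day 14 rapamycin arrays also helped to estimate the spread behind every p-value. The labels name no strain, genotype, promoter, sex, age or gland of origin for the tumours, and they do not say whether the tumour arrays came from separate mice. Sex-linked transcripts, given below, differed between the tumour arrays as between a male and a female. The p-values measure the spread between these arrays, which may be in part technical. All RNA was total RNA from whole tissue, so fewer cells of a type and less RNA per cell cannot be told apart.

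The mouse submandibular gland is drained by a tree of ducts with distinct jobs. Granular convoluted tubules store kallikreins, epidermal growth factor and renin in apical granules and release them into saliva by regulated exocytosis. Androgen, thyroid hormone and glucocorticoid control these cells, which are larger in males. Striated and excretory ducts take sodium and chloride back from the primary saliva through the epithelial sodium channel and the chloride channel CFTR, driven by the sodium pump of the basolateral membrane. Myoepithelial cells lie between the epithelium and its basement membrane, express smooth muscle proteins and squeeze the acini and the smallest ducts.

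The largest falls in the tumours were mostly those of kallikreins, a family of secreted serine proteases encoded side by side. Their 12 tested probes lay on chromosome 7 between 43822291 and 44096997 in the mm8 positions given by the files. The bases just before the start sites of family members that fell furthest, of Klk1 and of Egf are shown because these genes moved together and because the kallikreins are near copies. Each line runs 5′ to 3′ from base -100 to base -1 before the RefSeq start site of build GRCm38.p6, with the letters TTTAAA in capitals where present.

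Klk1b24: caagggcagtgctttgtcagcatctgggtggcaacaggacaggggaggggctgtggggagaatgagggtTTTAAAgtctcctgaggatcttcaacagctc
Klk1b4: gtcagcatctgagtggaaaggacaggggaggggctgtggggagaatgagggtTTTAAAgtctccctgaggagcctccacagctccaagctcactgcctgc
Klk1b9: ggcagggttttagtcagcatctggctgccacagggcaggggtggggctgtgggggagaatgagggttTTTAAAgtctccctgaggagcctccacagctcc
Klk1b26: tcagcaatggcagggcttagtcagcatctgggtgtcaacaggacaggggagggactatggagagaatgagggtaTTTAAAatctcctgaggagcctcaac
Klk1b16: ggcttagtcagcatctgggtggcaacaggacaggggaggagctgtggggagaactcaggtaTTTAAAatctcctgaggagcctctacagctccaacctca
Klk1: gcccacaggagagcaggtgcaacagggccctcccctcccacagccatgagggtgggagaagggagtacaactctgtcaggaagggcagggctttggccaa
Egf: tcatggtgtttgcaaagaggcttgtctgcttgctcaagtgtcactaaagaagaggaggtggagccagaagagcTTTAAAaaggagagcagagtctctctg

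The windows stand at chr7:44188136-44188235 for Klk1b24, chr7:44207333-44207432 for Klk1b4, chr7:43975961-43976060 for Klk1b9, chr7:44012578-44012677 for Klk1b26, chr7:44137190-44137289 for Klk1b16 and chr7:44225260-44225359 for Klk1, all on the forward strand. That of Egf stands at chr3:129755323-129755422 on the reverse strand. RefSeq promoters were at hand for 14 of the 16 tested granule genes. Over the 250 bases before the start sites, the 55 pairs of Klk1b genes were 75.1% to 97.7% identical with a median of 82.0%, in overlaps of at least 202 aligned columns. Klk1 was 72.6% to 83.2% identical to the Klk1b genes. The letters TTTAAA, which read the same on both strands, stood in the 100 bases before the start of 10 of 12 kallikreins and of Egf, against 4.44% of 27025 promoters. The hexamer AGAACA, a core of the element bound by steroid hormone receptors, was searched on both strands and stood in the same window of 1 of the 14 granule genes, against 6.36% of all promoters. These matches are descriptions of the letters. The kallikreins descend from duplications, so they are not separate observations.

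Levels are log2 of the processed signal, scaled by subtracting each array's own 75th percentile, so that 0 is a fairly bright spot. Differences are tumour minus submandibular gland on that log2 scale, with the standard error (SE) of the limma fit and p-values adjusted over all 16366 genes by the Benjamini-Hochberg method. A difference was called at an adjusted p under 0.05. The single submandibular array has no replicate of its own, and the fit assumes that it varies like the replicated groups. Where neither tumour array, or not the submandibular array, was well above background, the fold is given as a lower bound, "at least". It was computed on each such array against the gene's own signal or the dimmest signal still well above background there, whichever was larger.

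Over all genes, 4819 of 16366 (29.4%) were called, 2339 higher in the tumours (14.3%) and 2480 lower (15.2%). Of those lower, 151 were below background in both groups and 23 in the gland alone, so the 15.2% includes genes not measured in the gland. Of those higher, 933 were below background in the gland alone. On the scaled log2 values, the dimmest signal well above background was -6.50 and -6.84 in the tumours and -3.45 in the gland. The median difference over all genes was 0.05, with quartiles of -0.91 and 0.89. The tumour arrays were close to each other (Pearson r = 0.982 across genes, which are not independent replicates), and each was farther from the submandibular array (r = 0.775 and 0.779). The 75th percentile of the processed signal was 966 and 972 in the tumours and 277 in the submandibular gland, and 57.0%, 58.4% and 43.2% of spots were well above background, so weak signals were lost sooner in the gland. No spot was marked saturated. The tumour arrays shared a slide and the submandibular array was on the other slide. With slide as a fixed term, estimated through the parotid and the later rapamycin arrays, 2266 genes were called. The count was 2467 without tumour 1, 2488 without tumour 2, 8208 and 8226 without either parotid array, and 3072 and 3087 without either array of day 14 of rapamycin.

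The identity of the normal gland was checked against the parotid arrays. Genes higher in submandibular than in parotid gland made up 1.36% of all genes (223), and 10 of the 16 granule genes were among them. Egf stood at 8.03 in the submandibular gland and at 2.77 and 3.08 in the parotid glands. The label and these duct markers therefore went the same way.

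All 16 granular duct products on the array, of 18 listed, were tested, and all were lower in the tumours, with a median difference of -14.38. The median was -14.23 when genes below background in the tumours stood at their bound. The background for a fall was the 15.2% given above. Submandibular levels ran from 2.32 to 10 and tumour levels from -7.79 to -0.39, and for each gene the gland lay at least 9.66 above the higher tumour array. No member overlapped between the groups, which says little by itself with so few arrays.

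The kallikreins gave the widest gaps. Klk1b24 read -7.25 and -7.18 in the tumours and 8.98 in the gland, at least 51535-fold lower (adjusted p = 0.000314). Klk1b9 read -7.22 and -6.25 against 8.79, at least 36716-fold lower (adjusted p = 0.000224). The glandular kallikrein Klk1, which cuts kininogen, read -7.45 and -3.27 against 10, a difference of -15.36 (SE 1.48, adjusted p = 0.00124). The tumour arrays were both far below the gland for these genes, but they did not match each other for Klk1, which was well above background in tumour 2 alone.

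Klk1b4, whose levels were -7.42 and -4.79 against 9.68, and Klk1b26, at -6.99 and -3.99 against 9.89, showed the same split. Of the 16 granule genes, 3 were well above background in tumour 1 and 9 in tumour 2, and 6 were higher in tumour 2 by more than 1 log2 unit. Near copies can share signal on an array, so the value of any single kallikrein is uncertain. Klk1b16, at -7.14 and -7.49 against 8.05, and Klk1b21, at -7.26 and -7.24 against 8.05, were below background in both tumours. Klk1b8, Klk1b11 and Klk1b3 fell too, with differences from -14.28 (Klk1b8) to -13.48 (Klk1b3). Klk1b27 and Klk1b1, both below background in the tumours, were at least 15090-fold and 510-fold lower.

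The growth factor Egf fell with the proteases. Egf, the founding ligand of the EGF receptor, read -3.19 and -2.79 in the tumours against 8.03, a difference of -11.02 (SE 0.31, 2079-fold, adjusted p = 8.92e-05). Its probe lay on chromosome 3 at 129669930 to 129669989 (mm8). Both tumour arrays were well above background for it and far below the gland.

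Renin, the protease that releases angiotensin I, kept a measurable level. Ren1 read -0.52 and -0.48 against 9.43, a difference of -9.93 (SE 1.35, adjusted p = 0.00375). Ren2 read -0.39 and -0.50 against 9.27, a difference of -9.72 (SE 1.36, adjusted p = 0.00408). Their probes lie side by side on chromosome 1 in mm8 (135187628 to 135187687 and 135187713 to 135187774) and the genes are near copies, so the symbols cannot be read as separate measurements. The tumour arrays also enter the comparison with parotid gland. There, Ren1 read -3.87 and -0.01, and the tumours differed from them by 1.44 (SE 1.10, adjusted p = 0.334). Against the parotid glands, 14 of the 16 granule genes were also lower.

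Transcripts of the X and Y chromosomes did not match across these arrays. Xist, from the inactive X chromosome, read -5.45 in tumour 1, 4.19 in tumour 2 and 3.1 in the submandibular gland. The Y-linked Eif2s3y read 1.86, -7.69 and -5.10, and Ddx3y read 0.48, -7.62 and -5.06. Tumour 1 thus read as male, and tumour 2 and the gland as female, so the tumour arrays were not repeats of the same mouse. The part of sex in the granule results was not tested; the falls of all 16 genes were called without tumour 1 and without tumour 2.

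**Figure D1:**
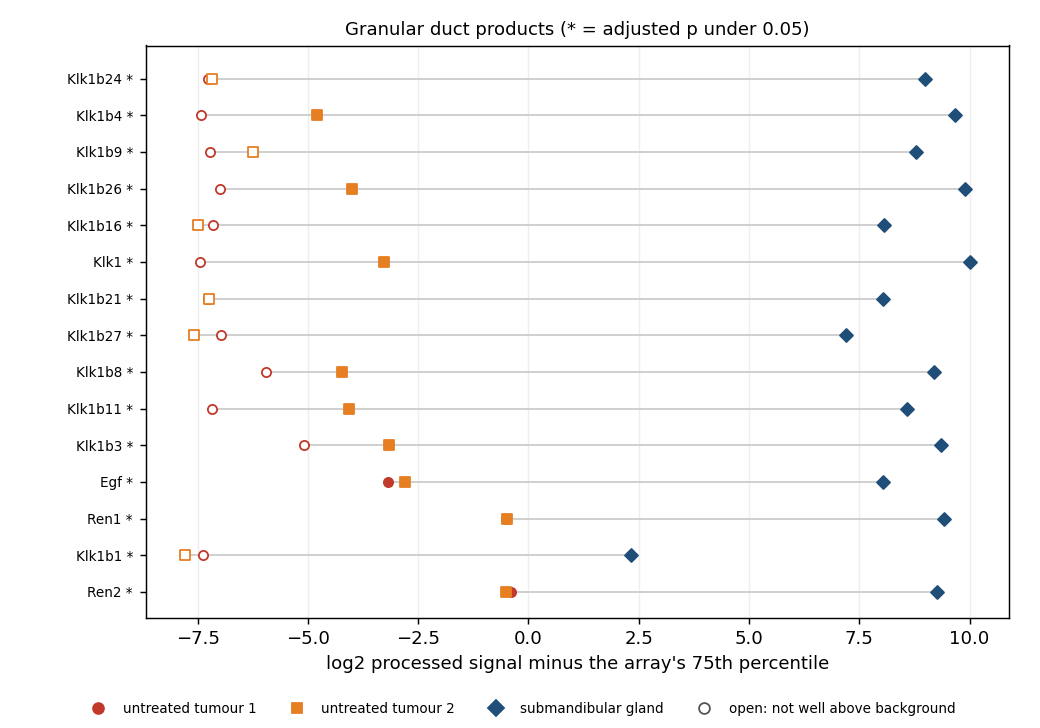
Levels of 15 granular duct products on the tumour arrays and the submandibular array (x axis, log2 processed signal minus the array's 75th percentile; 1 row per gene, a point per array, open where no probe of the gene was well above background, stars for adjusted p under 0.05). The gland reads 2.32 to 10, and no tumour point exceeds -0.39.

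Among 8 tested hormone receptors and response genes of these cells, 4 fell and 0 rose, also at an unadjusted p under 0.05. With normexp background correction 2 fell. Thrb, the beta thyroid hormone receptor, read -2.82 and -2.69 against 0.31, a difference of -3.07 (SE 0.42, adjusted p = 0.00395). Tsc22d3, a glucocorticoid-induced gene, read -0.82 and -0.49 against 2.70, a difference of -3.35 (SE 0.27, adjusted p = 0.000695). Both tumour arrays lay below the gland for each of these genes.

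Nr3c1, the glucocorticoid receptor, differed by -1.16 (SE 0.28, adjusted p = 0.0248). Its call was lost without tumour 1 (adjusted p = 0.12), without tumour 2 (0.104) and without either day 14 array (0.0655 for each), and its 3 probes ranged from -1.16 to -0.21. Srd5a1, which makes dihydrotestosterone, differed by 0.53 (adjusted p = 0.235) and the chaperones Fkbp4 and Fkbp5 by 0.76 and -1.14 (adjusted p = 0.185 and 0.18). The 2 probes of Fkbp4 disagreed in sign (-0.71 and 0.76), and the 3 of Fkbp5 ranged from -3.17 to -1.14. Without either parotid array Fkbp4 was called higher and Fkbp5 lower. With the mean of its probes Fkbp5 was also called lower (-2.44, adjusted p = 0.0279).

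The machinery that docks and fuses granules changed less than their cargo. Of 16 tested exocytosis genes, 7 were lower and 1 was higher, with a median of -1.22. Cadps2, which primes dense granules, read -3.88 and -3.43 against 1.75, a difference of -5.40 (SE 0.35, adjusted p = 0.000409), although its 3 probes ranged from -5.40 to -2.26. Its relative Cadps read 0.92 and 0.12 against -5.24, at least 15.6-fold higher (adjusted p = 0.00175). The 2 paralogs thus lay on opposite sides of the gland.

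Rab26, a GTPase of mature granules, read -1.44 and -1.09 against 1.83, a difference of -3.09 (SE 0.43, adjusted p = 0.00402). Rab27a, Vamp8, Vamp2, Sytl4 and Snap23, parts of the tethering and SNARE fusion machinery, were lower, with differences from -2.26 (Rab27a) to -1.29 (Snap23). Of the whole exocytosis list, the members lower numbered 2 with slide as a fixed term, 4 without tumour 1, 2 without tumour 2 and 4 without either day 14 array. Rab3d, the main Rab of exocrine granules, differed by -1.25 (adjusted p = 0.207) and Rab27b by -1.19 (adjusted p = 0.052). The 2 probes of Rab3d ranged from -2.65 to -1.25, and the 2 of Rab27b from -2.93 to -1.19. Both genes were called lower with the mean of their probes (-1.95 and -2.06) and without either parotid array.

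Ion transport genes of the striated and excretory ducts fell in larger number than they rose. Of 27 tested, 18 were lower and 5 higher, with a median difference of -3.12. With slide as a fixed term 14 were lower and 2 higher, and with normexp background correction 12 and 3. All 3 subunits of the epithelial sodium channel, which takes sodium out of the saliva, were among those that fell.

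Scnn1b, the beta subunit, read -3.60 and -2.70 against 2.86, a difference of -6.02 (SE 0.55, adjusted p = 0.00107). Scnn1g, the gamma subunit, read -3.84 and -2.90 against 2.15, a difference of -5.52 (SE 0.54, adjusted p = 0.00125). Scnn1a, the pore-forming alpha subunit, read -0.44 and -0.80 against 4.51, a difference of -5.13 (SE 0.46, adjusted p = 0.00102). Sgk1, the aldosterone-induced kinase that keeps the channel at the surface, read 1.42 and 1.32 against 5.28, a difference of -3.91 (SE 0.23, adjusted p = 0.000346). The gland was above both tumours for all of these.

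Genes of the sodium pump and its regulators fell by unequal amounts. Fxyd2, the gamma subunit that tunes the pump, read -7.39 and -7.76 against 4.73, at least 2702-fold lower (adjusted p = 0.000108). Atp1b1, the beta subunit, read 2.52 and 2.33 against 5.84, a difference of -3.42 (SE 0.24, adjusted p = 0.000491). Fxyd3 fell by 3.12 on the log2 scale (SE 0.30, adjusted p = 0.00119).

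Chloride and proton carriers followed. Cftr read -6.52 and -6.33 against -0.06, a difference of -6.36 (SE 0.54, adjusted p = 0.000843), and was well above background in 1 of the 2 tumour arrays. Bsnd, the barttin subunit of basolateral chloride channels, read -6.71 and -7.54 against -0.01, at least 101-fold lower (adjusted p = 0.00097). Slc9a2, a sodium-proton exchanger, read -3.38 and -4.12 against 2.61, a difference of -6.36 (SE 0.51, adjusted p = 0.000674).

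Foxi1, the transcription factor of ionocytes, read -7.30 and -5.33 against -1.17, a difference of -5.14 (SE 0.90, adjusted p = 0.00852). Atp6v1b1, a proton pump subunit of acid-secreting cells, read -7.12 and -7.11 against -0.83, at least 57.3-fold lower (adjusted p = 0.000701). With normexp background correction neither was called (adjusted p = 0.297 and 0.287), nor were Bsnd (0.125) and the potassium channels Kcnj15 (0.115) and Kcnj16 (0.279). Kcnj15 differed by -4.27. Kcnj16 was also called lower, but its tested probe was below background in the tumours, and its other probe gave -5.40. Slc26a6, Slc5a5 and Car12 were lower, with differences from -2.63 (Slc26a6) to -1.93 (Car12). The call of Slc5a5, the iodide carrier, was lost without either tumour array (adjusted p = 0.199 and 0.111) and without either day 14 array (0.0952 and 0.0946), and that of Car12 without tumour 2 (0.0592).

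The carriers that rose were different members of the same families. Slc9a3, the sodium-proton exchanger of absorptive apical membranes, read 3.16 and 2.84 in the tumours against -1.51, a difference of 4.51 (SE 0.60, adjusted p = 0.00351), opposite in sign to Slc9a2. Slc26a9, a chloride carrier, read -0.67 and -0.83 against -3.67, at least 6.48-fold higher (adjusted p = 0.0118). The anion exchanger Slc26a4, the chloride channel Clcn2 and carbonic anhydrase Car2 were higher with adjusted p-values of 0.0248, 0.0162 and 0.047. Of these 5, Slc9a3 was called without either tumour array, and the other 4 were called neither without tumour 1 nor without tumour 2.

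**Figure D2:**
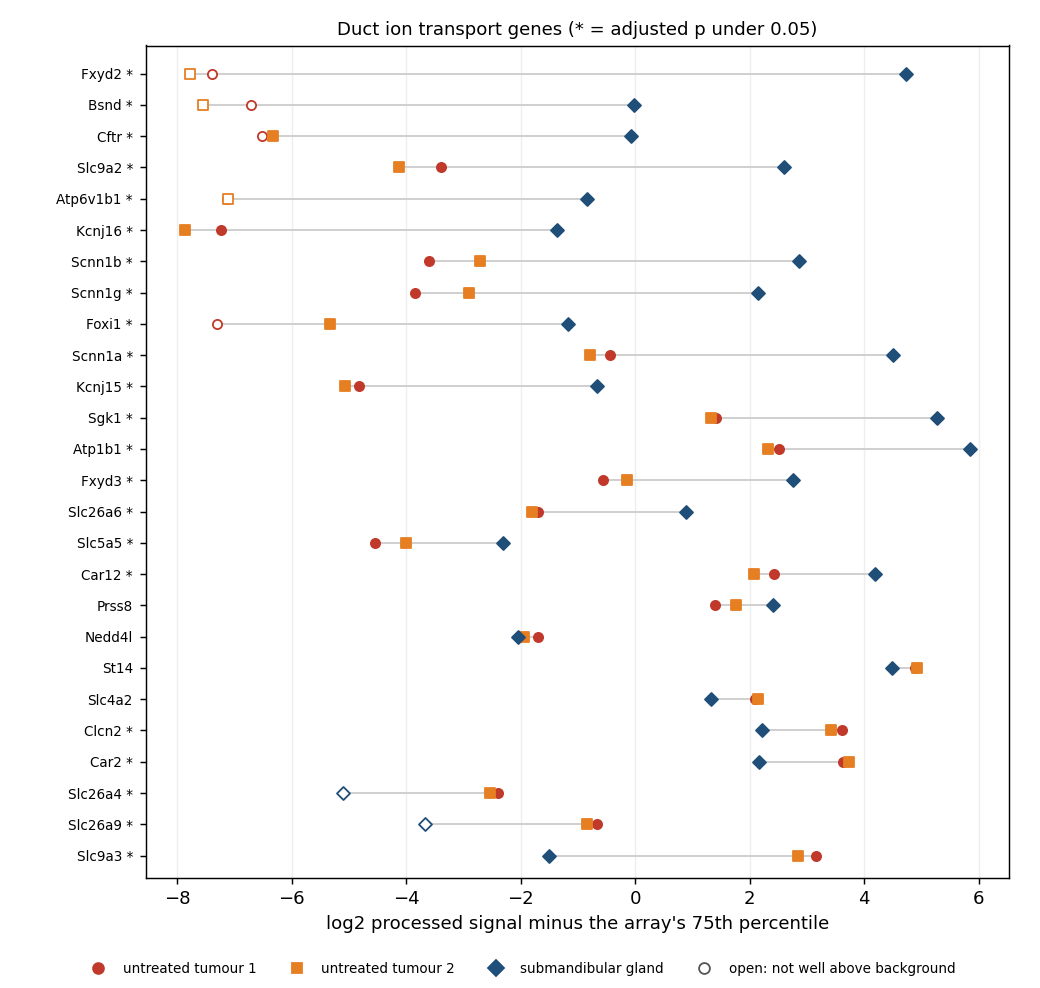
Levels of 26 duct ion transport genes on the tumour arrays and the submandibular array (x axis, log2 processed signal minus the array's 75th percentile; points, open points and stars as for the granule genes). The genes are ordered from the deepest fall, Fxyd2, to the largest rise, Slc9a3, whose gland level of -1.51 lies below both tumours.

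Genes of duct epithelium fell in part. Of 26 tested, 9 were lower and 0 higher, with a median of -0.02. At an unadjusted p under 0.05, 5 members were higher. Members called higher numbered 6 under quantile normalization, 5 in the deposited log2 values, 3 with normexp background correction and 10 in a fit of the 3 arrays alone. Over all genes these settings called 3180, 2611, 1506 and 4026 higher, of 16366 tested (16394 in the deposited values).

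Ascl3, a transcription factor of duct cells, read -6.55 and -6.45 against 3.49, at least 1001-fold lower (adjusted p = 0.000298). Tfcp2l1, a factor of transporting duct epithelia, read -0.26 and 0.43 against 5.62, a difference of -5.53 (SE 0.55, adjusted p = 0.00134). Cldn8, a tight junction protein that seals sodium-absorbing ducts, read -0.56 and 0.02 against 4.27, a difference of -4.54 (SE 0.41, adjusted p = 0.00101). The gland exceeded both tumours for each.

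Wfdc2, a secreted protease inhibitor, read 5.23 and 5.70 against 8.32, a difference of -2.85 (SE 0.43, adjusted p = 0.0053). Kit, the receptor of a duct progenitor population, differed by -1.91 (SE 0.32, adjusted p = 0.00785) and Tmprss2, an apical protease, by -1.56 (SE 0.27, adjusted p = 0.00879). Ehf, Pigr and Krt7 were lower, with differences from -3.78 (Ehf) to -1.71 (Krt7). Without tumour 1, 5 duct members were lower, and Ehf, Pigr, Krt7 and Tmprss2 were not called. Ehf and Krt7 were also lost without tumour 2, and Pigr and Krt7 without either day 14 array. The count was also 5 with slide as a fixed term.

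Krt18, Krt8 and Krt23, further keratins of the list, were not called. Krt18 read 7.71 and 8.16 against 8.14 (difference -0.21, adjusted p = 0.733), Krt8 read 7.66 and 8.33 against 6.86 (1.14, adjusted p = 0.259) and Krt23 read 6.12 and 6.02 against 6.17 (-0.10, adjusted p = 0.876). Krt18 and Krt8 were called higher under quantile normalization and in the deposited log2 values, and Krt8 also in the fit of the 3 arrays alone. Epcam and Cdh1, the adhesion molecules of epithelia, differed by -0.41 and 0.97 (adjusted p = 0.326 and 0.109). Cdh1 was called higher under quantile normalization and in the fit of the 3 arrays alone. Lcn2 and Ltf, secreted iron-binding proteins, read 0.01 and 0.34 (Lcn2) and 4.07 and 3.88 (Ltf) in the tumours and were below background in the gland, with adjusted p-values of 0.0541 and 0.0747, and both were called with either parotid array left out (the largest adjusted p was 9.21e-05 for Lcn2 and 4.92e-06 for Ltf).

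Basal epithelial genes fell in part. Of 18 tested, 10 were lower and 1 higher, with a median of -2.08. The number lower was 5 with slide as a fixed term. Trp63, the transcription factor that defines basal epithelium, read -3.08 and -3.10 against 1.35, a difference of -4.44 (SE 0.50, adjusted p = 0.0021).

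Lamb3, a laminin-332 chain of the basement membrane, read -1.73 and -2.16 against 2.53, a difference of -4.47 (SE 0.55, adjusted p = 0.0026). Col17a1, the hemidesmosome collagen, read -1.48 and -2.10 against 1.68, a difference of -3.47 (SE 0.61, adjusted p = 0.00872). Ngfr, a receptor also used as a basal cell marker, read 2.07 and 1.96 against 5.30, a difference of -3.29 (SE 0.31, adjusted p = 0.00121). Against the parotid gland, Ngfr was higher in the tumours by 2.70 (SE 0.26, adjusted p = 0.00075).

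Egfr, the receptor of Egf, read -1.31 and -2.12 against 2.47, a difference of -4.18 (SE 0.61, adjusted p = 0.00455). Dst and Cav1 differed by -2.62 and -2.04. Krt15 and Cdh3 were lower as well, and Lama3 was higher by 1.41 (adjusted p = 0.0338), but these 3 lost their calls without tumour 1, without tumour 2 and without either day 14 array. Cdh3 was below background in both groups. The basal keratins Krt5 (2.69 and 2.04 against 4.33) and Krt14 (3.47 and 3.04 against 3.60) were not called (adjusted p = 0.0867 and 0.719), and Krt5 was called lower without either parotid array (0.00183 and 0.00184).

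**Figure D3:**
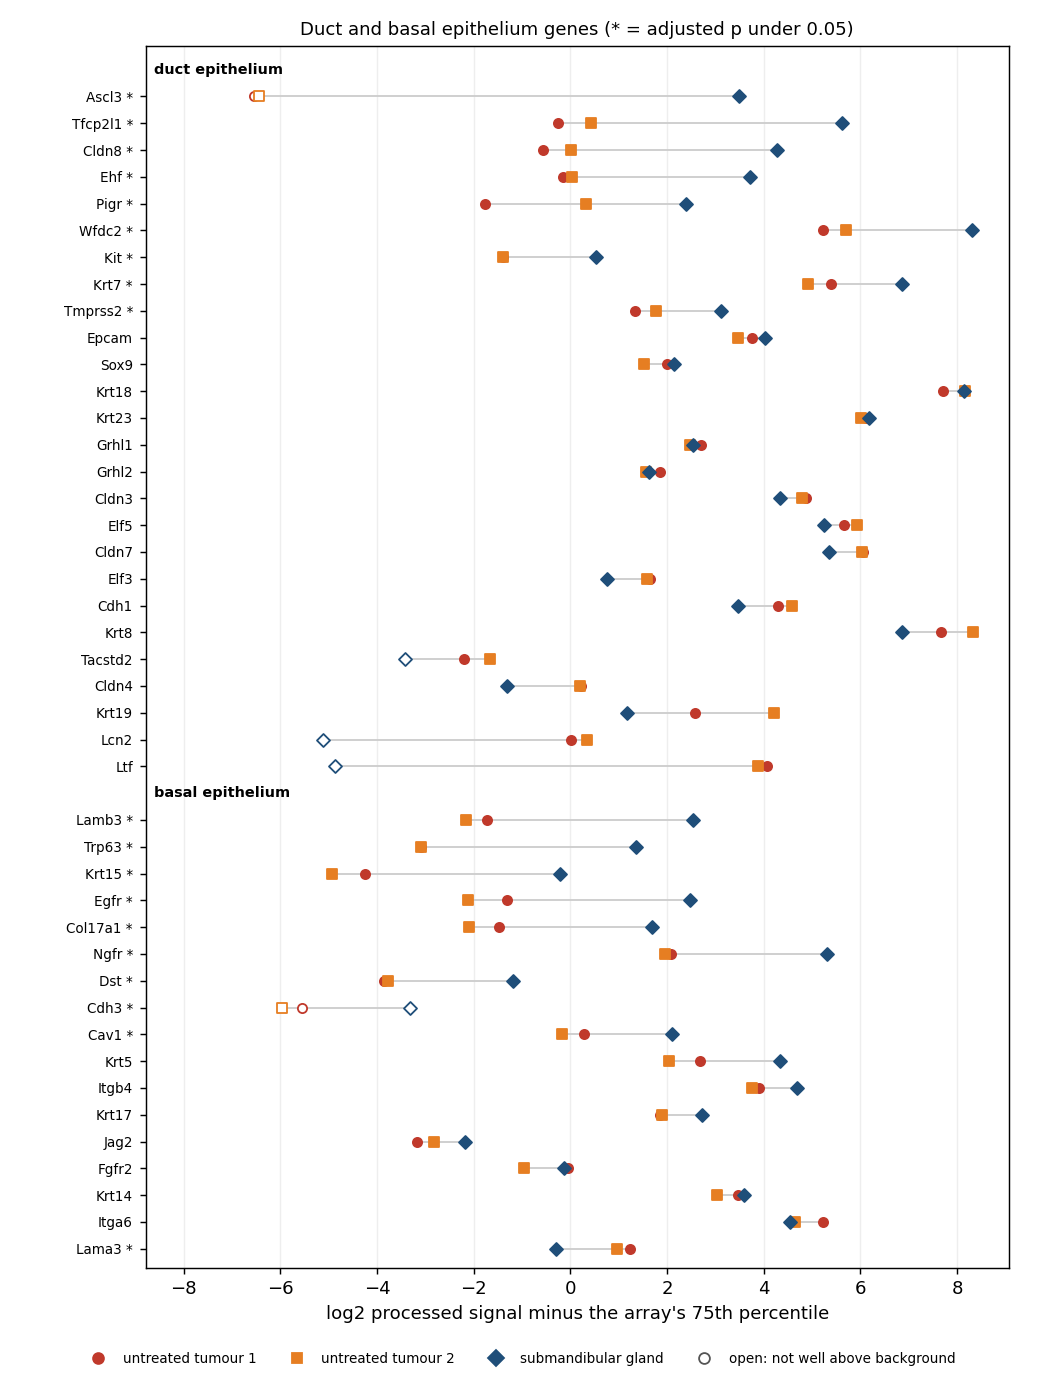
Levels of 26 duct epithelium genes and 17 basal epithelium genes on the tumour arrays and the submandibular array (x axis, log2 processed signal minus the array's 75th percentile; points, open points and stars as for the granule genes). Ascl3, Tfcp2l1 and Trp63 lie far to the right in the gland, while the points of Krt18, Krt23 and Krt14 lie close together.

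The contractile genes of myoepithelial cells were lower in the tumours, and 0 were higher, also at an unadjusted p under 0.05 and with normexp background correction. Of 17 tested, 10 fell, with a median of -1.66. Myh11, smooth muscle myosin heavy chain, read -3.73 and -3.97 against 3.62, a difference of -7.46 (SE 0.53, 177-fold, adjusted p = 0.000491). Cnn1, calponin, read -0.38 and -1.78 against 5.97, a difference of -7.05 (SE 1.06, 132-fold, adjusted p = 0.00519). Lmod1, an actin nucleator of smooth muscle, read -3.05 and -4.37 against 1.84, a difference of -5.55 (SE 0.68, adjusted p = 0.00262). Both tumours lay below the gland for each, and tumour 2 lay lower than tumour 1.

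Mylk, myosin light chain kinase, read 0.31 and -0.54 against 4.39, a difference of -4.51 (SE 0.60, adjusted p = 0.0036). Its substrate Myl9 read 2.06 and 0.48 against 6.29, a difference of -5.02 (SE 0.87, adjusted p = 0.00831). Tagln read 3.08 and 1.67 against 6.24, a difference of -3.86 (SE 0.63, adjusted p = 0.00678). These 3, like Myh11, Cnn1 and Lmod1, were called without each tumour, parotid or day 14 array in turn. With slide as a fixed term Myl9 and Tagln were not (adjusted p = 0.0575 and 0.053).

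Acta2, smooth muscle actin, read 3.65 and 1.96 against 6.72, a difference of -3.92 (SE 0.96, adjusted p = 0.0267), and its 4 probes ranged from -4.81 to -0.29. Tpm2, Actg2 and Cald1 were lower, with differences from -3.61 (Tpm2) to -1.44 (Cald1). These 4 were not called without tumour 2 or without either day 14 array, which left 6 members lower, and Tpm2 and Cald1 were lost without tumour 1 as well. The fit with a slide term left 4 lower. Srf and Mrtfa, the transcription factor and coactivator that drive contractile genes, differed by -0.44 and 0.91 (adjusted p = 0.222 and 0.131). In the fit of the 3 arrays alone Mrtfa was called higher, the 1 contractile gene that was.

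The same contractile proteins are made by vascular smooth muscle. Of 9 vascular smooth muscle and pericyte markers, 0 were lower and 1, Mcam, was higher by 2.19 (SE 0.43, adjusted p = 0.0133, or 0.0653 without tumour 1). Their summed signal, in units of each array's 75th percentile, was 21.9 and 13.7 in the tumours and 14.9 in the gland. That of the contractile list was 50.3 and 30.1 against 411.7. Of 12 endothelial markers 2 were lower, Vwf and Plvap, and both were lost without tumour 2 or either day 14 array. At an unadjusted p under 0.05, and with normexp background correction, 0 pericyte markers were lower. In the fit of the 3 arrays alone 1 was lower and 2 were higher. The median pericyte difference was 0.45, and -0.13 without tumour 1. Over all genes 15.2% were lower and 14.3% higher, and the endothelial count was near that share. The part of blood vessels in the contractile result was not tested beyond these values.

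**Figure D4:**
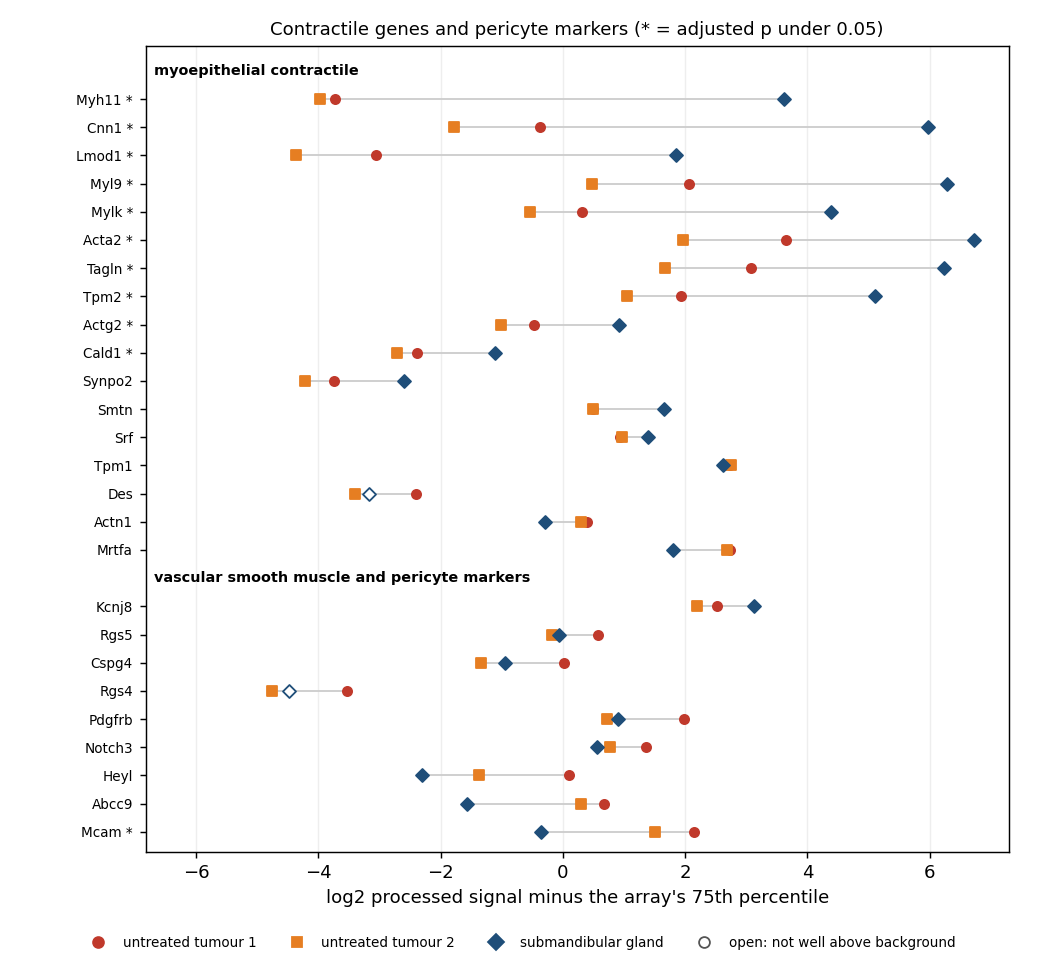
Levels of 17 myoepithelial contractile genes and 9 vascular smooth muscle and pericyte markers on the tumour arrays and the submandibular array (x axis, log2 processed signal minus the array's 75th percentile; points, open points and stars as for the granule genes). From Myh11 to Cald1 the gland lies to the right of both tumours, and in the lower block Mcam alone carries a star, with the gland to the left.

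Of 19 transcription factors of the gland lineages tested, 8 were lower and 3 higher, against 15.2% and 14.3% of all genes. The number higher was near that share. The number lower was 3 without tumour 1, 4 without tumour 2 and 4 without either day 14 array. Besides Ascl3, Tfcp2l1 and Ehf, Creb3l1, a factor of secretory cells, fell by 5.06 (SE 0.51, adjusted p = 0.00141). Bhlha15, known as Mist1 in exocrine cells, read 4.05 and 4.61 against 6.60, and its call (adjusted p = 0.024) was lost without either tumour array (0.103 and 0.0546) and either day 14 array (0.0668 for each). Gata6 read 2.37 and 1.40 in the tumours and -4.16 in the gland, at least 40.3-fold higher (adjusted p = 0.00255). Sox10 (4.58 and 4.69 against 4.52) and Elf5 (5.66 and 5.94 against 5.25) were not called (adjusted p = 0.808 and 0.235), although Elf5 was under quantile normalization.

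Among the other EGF family genes, Erbb4 fell by 1.80 (SE 0.30, adjusted p = 0.00712). The ligand Hbegf read 0.07 and -0.01 against -1.66 (adjusted p = 0.0176). The ligand Areg read -1.73 and -3.20 in the tumours and was below background in the gland (adjusted p = 0.0485). Hbegf was not called without tumour 1 (0.0929) or tumour 2 (0.0804), nor Areg without tumour 1 (0.208) or either day 14 array (0.103 for each). Of 9 family members tested, Egf among them, 3 were lower and 2 higher, with a median of 0.66. The shares over all genes were 15.2% lower and 14.3% higher.

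Of the genes of the AKT pathway, Akt1 read 4.78 and 4.97 in the tumours against 5.09 (difference -0.22, adjusted p = 0.583). The labels do not say how AKT was introduced, and a probe for the mouse gene need not report an introduced form. Of 10 pathway genes tested, 1 was higher and 2 lower, near the shares of all genes (14.3% higher and 15.2% lower). Eif4ebp1, a repressor of translation, was among the lower (difference -1.68, adjusted p = 0.0482). Its call was lost without either tumour array, without either day 14 array and with slide as a fixed term (adjusted p = 0.249). Without tumour 1 the limma fit called 0 of the 10. Fkbp1a, the binding partner of rapamycin, read 1.59 and 1.32 against -0.48, a difference of 1.93 (SE 0.37, adjusted p = 0.0119, or 0.0731 without tumour 1).

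Genes of acinar fluid secretion fell in number: of 14 tested, 10 were lower and 0 higher, with a median of -1.92. At an unadjusted p under 0.05, 1 was higher. With slide as a fixed term 6 were lower, and with normexp background correction 5. Without tumour 2 the number lower was also 6. Adrb1, the beta-adrenergic receptor, read -1.29 and -1.31 against 3.21, a difference of -4.51 (SE 0.26, adjusted p = 0.00033). Slc12a2, the sodium-potassium-chloride carrier that loads acinar cells, read 1.30 and 1.34 against 5.78, a difference of -4.45 (SE 0.26, adjusted p = 0.00033). Adra1a and the muscarinic receptor Chrm3 were at least 51.8-fold and 21.2-fold lower (adjusted p = 0.00194 and 0.00297), though not with normexp correction (0.257 and 0.619).

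The secretory products of acinar and mucous cells were unequal between the tumours. Of 19 tested, 7 were lower and 2 higher. Without tumour 1 these counts were 8 and 5, and without tumour 2 they were 11 and 1. Crisp3, a secreted cysteine-rich protein, read -7.30 and -7.71 against 8.24, at least 30826-fold lower (adjusted p = 4.24e-05). Smgc, a secretory product of the developing gland, was at least 15190-fold lower (adjusted p = 0.00163) but not called in the deposited log2 values (0.548). Pip, prolactin-induced protein, read -7.44 and 1.53 against 9.55. Salivary amylase, Amy1, singled out after its values were seen, read -3.83 and 5.12 against 4.0 and was not called (adjusted p = 0.452). Tumour 2 was thus above tumour 1 for Pip and Amy1, as it was for Klk1.

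Counts for marker genes of other cells stand beside these results, against 15.2% of all genes lower and 14.3% higher, and their part in the results was not tested. Of 9 B and plasma cell markers 3 were lower and 0 higher, with a summed signal of 0.783 and 0.603 in the tumours against 47.0, and Jchain, the joining chain of secreted antibodies, read -2.84 and -4.30 against 5.32. Fibroblast and matrix markers were lower in 5 of 12 and higher in 1. Nerve and Schwann cell markers were lower in 4 of 8, among them Gfra3, which read -5.15 and -4.54 against 2.96 (adjusted p = 0.000376). Squamous epithelium markers were higher in 4 of 9 and lower in 0, with Sprr1a at least 33.1-fold and Krt6a at least 14.2-fold higher (adjusted p = 0.00226 and 0.00354).

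Adipocyte markers were lower in 4 of 9 and higher in 1, T cell markers lower in 2 of 10, and macrophage markers lower in 1 and higher in 1 of 12. Neutrophil markers were lower in 1 and higher in 2 of 4, and mast cell markers lower in 2 and higher in 1 of 4. All 4 mast cell markers were below background in the gland, and 3 of them in both tumours as well. The 2 lower mast cell calls thus compare signals below background, and with normexp background correction 0 were called. For 12 skeletal muscle markers the limma fit called 0, against 1 lower at an unadjusted p under 0.05, and 0 with normexp background correction. Without either parotid array 7 were lower and 3 higher, and from the 3 arrays alone 6 and 1. These settings also called more of all 16366 genes. Without either parotid array 4216 and 4227 were lower and 3992 and 3999 higher. From the 3 arrays alone 4059 were lower and 4026 higher. For every list, counts from these settings stand against these totals and not against 15.2% and 14.3%. Several of these marker counts also rested on single arrays: without either parotid array 9 T cell markers and 7 B and plasma cell markers were lower, and without either day 14 array 1 T cell and 1 adipocyte marker were. Genes of mitochondrial respiration, which is dense in striated ducts, were lower in 7 of 21 and higher in 0. The number lower was 3 without either tumour array or either day 14 array, and 18 without either parotid array. Esrrg, a nuclear receptor that drives them, read -4.41 and -4.93 against 2.93 (adjusted p = 0.00208). Genes of protein folding in the endoplasmic reticulum were lower in 5 of 18 and higher in 0, with 2 lower without either tumour or either day 14 array, 12 without either parotid array and 1 with slide as a fixed term.

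The 10 largest rises held genes of several kinds. Bpifb5, of the BPI fold family of secreted proteins, read 8.15 and 8.23 in the tumours and -5.27 in the gland, where it was below background. Wif1, a secreted Wnt inhibitor, read 5.58 and 5.61 against -2.87, at least 353-fold higher (adjusted p = 0.000133). Sp5, a transcription factor induced by Wnt signals, read 4.95 and 4.58 against -4.87, at least 297-fold higher (adjusted p = 0.000272). Dkk2, another Wnt regulator, read 4.92 and 4.73 against -5.25, at least 309-fold higher (adjusted p = 0.00119). Bpifb9a, S100a14, Mfsd2a, Slc30a2, Psrc1 and Prss56 were the others.

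Of 20 listed Wnt targets 14 were higher and 0 lower, and 14 and 0 with normexp background correction. At an unadjusted p under 0.05, 15 were higher and 0 lower. Lgr5 was at least 30.2-fold higher (adjusted p = 0.000841). All 24 proliferation genes were higher, with a median of 5.21, or 4.82 with the 9 that were below background in the gland at their bound. Plk1 read 4.89 and 5.15 against -1.02, a difference of 6.04 (SE 0.69, adjusted p = 0.00215). With slide as a fixed term 19 of these 24 and 11 of the Wnt targets were higher. The 10 largest falls were Klk1b4, Klk1b24, Klk1b26, Klk1, Klk1b9, Klk1b16, Klk1b21, Crisp3 and the secretoglobins Scgb1b27 and Scgb2b26.

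**Figure D5:**
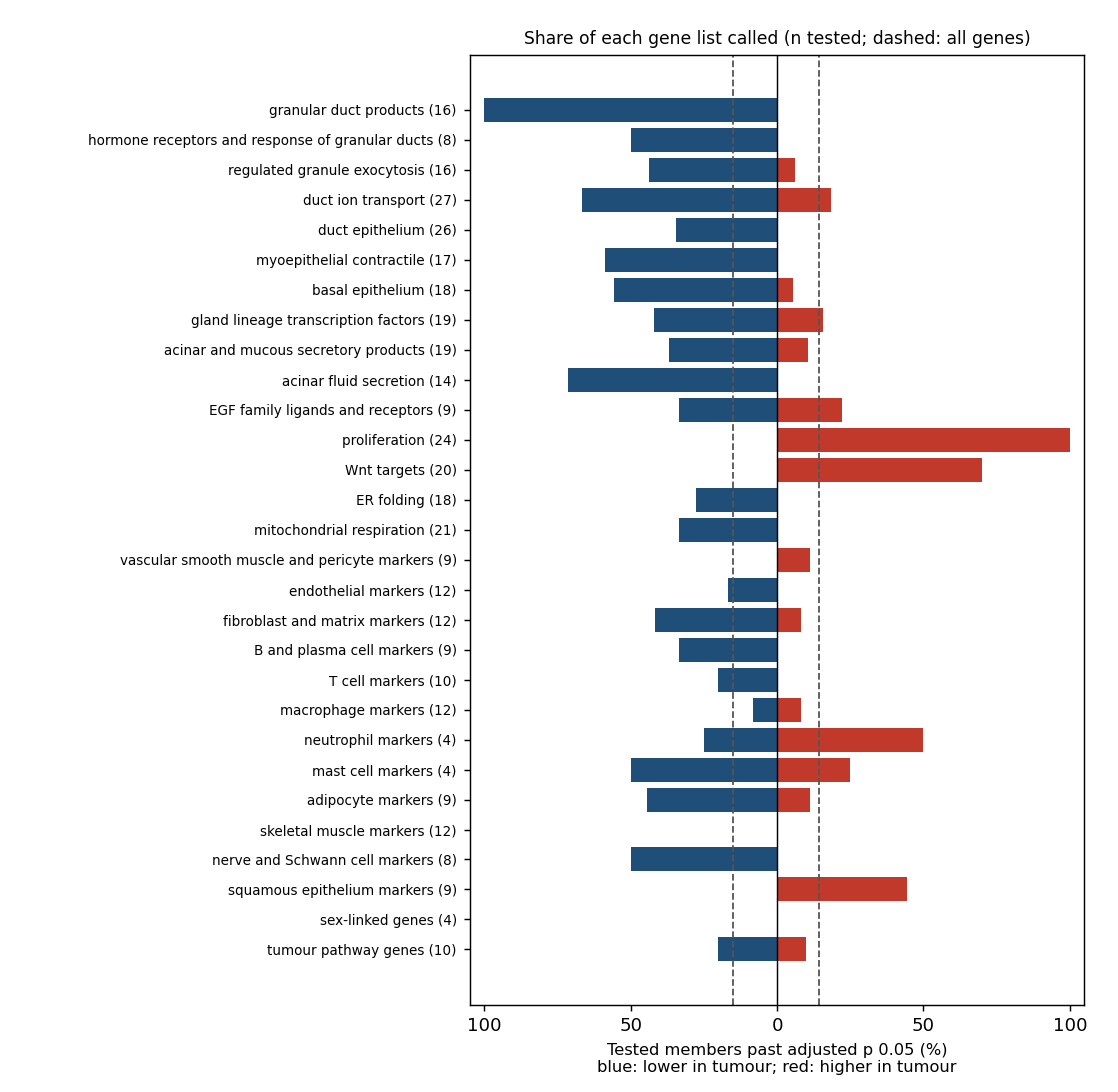
Percent of the tested members of each gene list called lower (left, blue) or higher (right, red) in the tumours than in the submandibular gland at an adjusted p under 0.05; dashed lines give the shares over all genes, 15.2% lower and 14.3% higher. All granule products lie on the left and all proliferation genes on the right, while vascular smooth muscle and pericyte markers show 1 member on the right.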

How the data were processed

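Total RNA was labelled in 1 colour and hybridised to Agilent whole mouse genome arrays, per the labels' protocols. The scanner files were deposited as made by Feature Extraction 10.7.3.1, per the file headers, and their processed signal is a background-subtracted intensity on a linear scale. A table of log2 values was also deposited by the authors. Its columns have medians of 5.52 to 5.57 and 1 shared maximum of 18.96, its normalization and centring are not stated in the sources used here, and it served as an alternative.

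Each intensity was log2-transformed and the array's 75th percentile subtracted. Control and outlier spots were left out. Of 41174 probes, 24410 passed a filter that asked for a signal well above background throughout at least 1 group, and the brightest kept probe stood for a gene. Symbols came from RefSeq accessions where these matched, otherwise from the files. limma 3.58.1 in R 4.3.3 fitted a mean per group over all 8 arrays (5 groups) with an intensity trend, leaving 3 residual degrees of freedom, and its steps were tested on simulated data. p-values are two-sided. The number of arrays limits the precision. Sequences came from RefSeq (GRCm38.p6).

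The genes and lists were chosen with earlier results of these data known. Members of the 7 duct, contractile and basal lists could be named with values. Any member could be named of the lists of gland transcription factors, EGF family, AKT pathway and sex-linked genes. Of the remaining lists up to 4 members with the largest called change could be named, and beyond the lists the 10 largest rises and falls. A few members of these lists are counted in the lists but not reported here by name.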

Additional observations from a re-analysis of the deposited data

How the results depend on the processing

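No paired analysis was possible because the submandibular gland had 1 array. The count of genes called was 4819 (2339 higher, 2480 lower). It was 3069 (1506 and 1563) with normexp background correction, 2266 (1096 and 1170) with slide as a fixed term and 8085 (4026 and 4059) from the 3 arrays alone. Without a filter on dim probes it was 13385, with 10601 lower. Over genes above background on all 8 arrays it was 3059, with 1374 higher, since fewer genes were tested. Leaving out 1 array gave 2467 to 8226 genes called, 1012 to 3999 higher and 1365 to 4227 lower. Quantile normalization moved the median of all genes by 0.11, from 0.05 to 0.16, and the split to 3180 higher and 2462 lower. Members lower fell to 2 granule products and 9 ion transport genes over genes above background on all arrays, where few members were tested, and to 2 hormone genes with normexp. With slide as a fixed term they were 2 for exocytosis, 5 for duct epithelium, 4 for contractile and 5 for basal genes. Leaving out 1 array gave 2 to 9 exocytosis genes, 5 to 9 duct epithelium genes and 6 to 12 contractile genes. Differences of genes not called changed sign: Krt18 became 0.86 (quantile), 0.85 (deposited values), 0.24 (slide fixed) and -0.43 to 0.011 with 1 array left out, Krt23 0.37, 0.57 and 0.43 under the first 3, Krt14 0.61 (slide fixed), and Akt1 0.035 (quantile), 0.17 (mean of probes) and 0.083 (slide fixed). With 1 array left out, Amy1 ran from -7.82 to 1.13, Xist from -8.55 to 1.10, Ddx3y from -2.56 to 5.53 and Eif2s3y from -2.58 to 6.97. The causes were not tested. Weak signals limit the submandibular array most, where 43.2% of spots were well above background.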
